A study of Mus musculus with 8 samples.

Results

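The genes described here are the classical cadherins, the cadherins outside the classical types and the non-clustered protocadherins of the mouse, measured in hippocampal neuron cultures given Nr4a1 or GFP. A probe belonged to the group where its accession matched, through a RefSeq gene table, a symbol made of Cdh or Pcdh followed directly by a digit. The table held 35 such symbols, and 34 of them had at least 1 probe, 49 probes in all. Pcdh11x was the symbol without a matched probe. Of the 34 genes, 23 were measured well enough to be tested, among 21116 genes or unnamed transcripts (features) tested on the arrays.

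The arrays carry RNA of 8 cultures of dissociated mouse hippocampal neurons. All were grown for 10 days, received a lentivirus and were kept 6 days longer. In 4 cultures the virus carried Flag-Nr4a1, a tagged form of an orphan nuclear receptor that neuronal activity induces, and in the other 4 it carried GFP, so virus and culture time were common to both groups. Each culture was labelled with Cy5 and hybridised against a commercial RNA, Universal Mouse Reference, in Cy3, with no dye swap. Mouse strain, age and sex, the promoter that drives the transgene and the share of infected cells are not given in the sources used here. Nothing in the labels says that replicates came from separate preparations, so p-values measure the spread of the differences within pairs of these cultures. A level below is the log2 ratio of culture over reference, which can be compared between arrays for 1 probe but not between probes. A difference is the Nr4a1-labelled minus the GFP-labelled level within 4 pairs named in the labels, with its limma standard error (n = 4 per group throughout), and the threshold is a Benjamini-Hochberg adjusted p of 0.05 over all features.

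Cadherins are single-pass membrane proteins whose extracellular repeats bind calcium and pair with cadherins on the facing cell. The cytoplasmic tails of type I and type II classical cadherins bind delta-catenins and beta-catenin, and alpha-catenin links the latter to actin. Type I cadherins have broad tissue roles, whereas many type II cadherins mark particular neuron groups and fibre pathways and help to match synaptic partners. Non-clustered protocadherins have longer extracellular parts and no catenin-binding tail. The delta-1 group binds a protein phosphatase through its tail, and several delta-2 members recruit the WAVE complex, which starts branched actin assembly. In hippocampal neurons N-cadherin, the product of Cdh2, sits at excitatory synapses.

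The delivered gene was read first as a check of the labels. The Nr4a1 probe gave -2.06, -2.12, -1.90 and -2.49 in GFP-labelled cultures 1 to 4, against -1.32, -2.49, -1.20 and -2.37 in their Nr4a1-labelled partners. The difference was 0.30 ± 0.15 (SE), with limma adjusted p = 0.193, and it was higher in 3 of 4 pairs. Leaving out replicates 1, 2, 3 and 4 in turn gave 0.15, 0.52, 0.17 and 0.36 (adjusted p = 0.588, 0.00602, 0.518 and 0.230). The groups overlapped at this probe, so the groups are called by their labels throughout. It was not determined here whether the probe lies in the delivered sequence. Median signals over the arrays ran from 137 to 194 in Cy5 and from 141.5 to 154 in Cy3, over backgrounds of 29 to 32. Slide 1 held all 4 GFP-labelled arrays, slide 2 held replicates 1 to 3 of the Nr4a1-labelled ones, and slide 3 the remaining one. With the slide added as a random block, 12 features (0.0568%) and 0 members passed the limma test. An unadjusted p under 0.05 was found for 0 members, beside 722 of all 21116 features. Each slide held 1 group, so slide and group cannot be told apart in what follows.

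Across all features, 24.4% passed the threshold in either direction, 12.9% higher and 11.5% lower in the Nr4a1-labelled cultures. Of the 23 tested members, 5 were higher and 3 were lower, which is 34.8% called, and 15 were not called. Cdh2, Cdh12, Cdh20, Pcdh7 and Pcdh19 were higher, and Cdh8, Cdh10 and Cdh22 were lower. The median difference of the members was 0.06, beside -0.0035 over all features. The median absolute difference was 0.17 among the members and 0.11 over all features. None of the called members reached 2-fold, a size that 0.767% of all features reached with a call. On the log2 scale 1 member (Pcdh7) reached 0.5, as 4.83% of all features did with a call. At an unadjusted p under 0.05 stood 12 members, beside 36.6% of all features. The 2 groups of arrays did not overlap for 4 members (17.4%), beside 24.4% of all features.

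**Figure D1:**
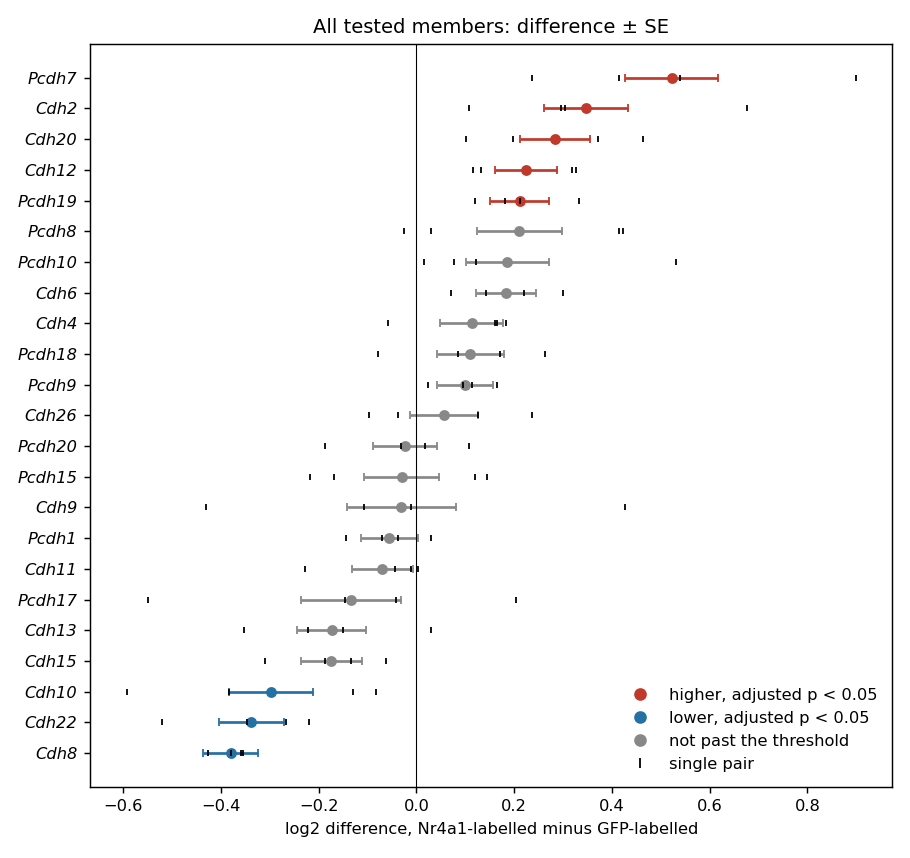
Difference in log2 ratio, Nr4a1-labelled minus GFP-labelled, for each of the 23 tested members (points) with its limma standard error (bars) and the 4 single pairs (ticks), coloured by call. Pcdh7 lies at 0.52 and Cdh8 at -0.38, and the other 21 members lie between them.

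The plot of all tested members shows that the 8 called genes had the same sign in all 4 pairs. Of the 15 uncalled members, 7 lay above and 8 below 0, and 4 of them kept the same sign in all pairs. The labels put the replicate 4 pair in batch 2 and the others in batch 1. In batch 1 alone, Cdh20, Pcdh7, Cdh8, Cdh10 and Cdh22 stayed past the limma threshold, and batch 2, with 1 pair, allows no test.

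The gene order in the RefSeq table of assembly GRCm38.p6 puts several members side by side. On chromosome 15, Cdh6, Cdh9, Cdh10 and Cdh12 follow each other with 0 other protein-coding genes between neighbours. Cdh10, which was lower, and Cdh12, which was higher, are therefore neighbours called in opposite directions, although 2 of the alternative settings given below turned the sign of Cdh12. On chromosome 8, Cdh8, which was lower, is next to Cdh11, which was not called. The 4 tested members of chromosome 14 (Pcdh8, Pcdh17, Pcdh20 and Pcdh9) were not called.

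Promoter windows of the RefSeq promoter table (GRCm38.p6), from 250 bases before to 50 bases after the start of transcription, were held for 22 of the members, 7 of them called. NR4A receptors bind as monomers to the element AAAGGTCA, known as NBRE. It was searched on both strands, and was in 0 of 25 member windows and in 1.51% of the 32851 windows in the table. The shorter core AGGTCA, which lies inside the element, was in 1 member window, that of the untested Cdh18, and in 16.3% of all windows. The searched windows are short, and a match or its absence describes these letters only. Member windows had a median of 14 CpG dinucleotides and 60.3% G and C, beside 7 and 52.7% over all windows.

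The 250 bases before the start are shown for Pcdh7 and Cdh8, which had the largest rise and fall by the brightest probe of each gene, and for the neighbouring genes called in opposite directions (Cdh10 and Cdh12, chosen after their values were seen). They are written 5′ to 3′ on the strand of the gene, with CpG dinucleotides in capitals. They are chr5:57717831-57718080 on the plus strand for Pcdh7, chr8:99416472-99416721 on the minus strand for Cdh8, and chr15:18820079-18820328 and chr15:21111202-21111451, both on the plus strand, for Cdh10 and Cdh12.
Pcdh7: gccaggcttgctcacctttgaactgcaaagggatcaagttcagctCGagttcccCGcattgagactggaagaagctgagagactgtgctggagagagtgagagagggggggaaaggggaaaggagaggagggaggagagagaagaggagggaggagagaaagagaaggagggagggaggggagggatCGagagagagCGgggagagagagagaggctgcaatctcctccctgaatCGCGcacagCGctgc
Cdh8: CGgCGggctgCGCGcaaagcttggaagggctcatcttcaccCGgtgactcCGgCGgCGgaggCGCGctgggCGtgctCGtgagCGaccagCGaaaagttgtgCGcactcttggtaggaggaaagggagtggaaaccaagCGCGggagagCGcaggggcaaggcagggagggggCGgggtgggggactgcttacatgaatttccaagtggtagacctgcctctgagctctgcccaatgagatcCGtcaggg
Cdh10: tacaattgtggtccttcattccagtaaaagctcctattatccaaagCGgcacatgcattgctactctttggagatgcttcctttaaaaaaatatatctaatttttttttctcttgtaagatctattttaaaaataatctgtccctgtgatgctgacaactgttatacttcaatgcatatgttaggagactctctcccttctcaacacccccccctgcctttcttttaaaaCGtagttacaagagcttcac
Cdh12: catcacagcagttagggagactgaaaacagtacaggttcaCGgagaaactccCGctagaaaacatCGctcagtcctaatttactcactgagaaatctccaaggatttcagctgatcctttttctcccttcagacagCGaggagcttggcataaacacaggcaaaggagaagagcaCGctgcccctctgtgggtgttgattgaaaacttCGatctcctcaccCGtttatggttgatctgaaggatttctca
The stretch of Cdh8 held 20 CpG dinucleotides at 64.4% G and C, and that of Pcdh7 held 7 at 58.4%. Of the neighbours, Cdh10 had 2 CpG dinucleotides at 36.8% G and C, and Cdh12 had 7 at 46.8%. The highest and the lowest CpG count of these 4 stretches thus both belonged to genes that were lower.

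Type I classical cadherins include the main synaptic cadherin, and 1 of the 3 tested genes was called. Cdh2, encoding N-cadherin, gave 2.52, 2.41, 2.56 and 2.18 in GFP-labelled cultures 1 to 4, against 2.81, 2.72, 2.67 and 2.86 in their Nr4a1-labelled partners. Every Nr4a1-labelled array was above every GFP-labelled array. The difference was 0.35 ± 0.086 (SE, adjusted p = 0.0161, limma), or 1.27-fold. A further Cdh2 probe rose by 0.53 ± 0.089 (adjusted p = 0.0022), with levels of 2.70 to 2.94 on the GFP-labelled and 3.18 to 3.68 on the Nr4a1-labelled arrays. The call of the brighter probe was lost without replicate 1 (0.36, adjusted p = 0.0509) and without replicate 4 (0.24, adjusted p = 0.0555).

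Cdh4, encoding R-cadherin, was measured by 3 probes that did not all give the same call. Its brightest probe gave 3.42, 3.24, 3.44 and 3.40 with GFP, against 3.58, 3.40, 3.38 and 3.58 with Nr4a1, in replicate order. Those groups overlapped, and the difference of 0.11 ± 0.064 was not called (adjusted p = 0.233, limma). Another Cdh4 probe was called at 0.46 ± 0.10 (adjusted p = 0.0095), and the remaining one was not, at 0.13 ± 0.075 (adjusted p = 0.235). Cdh15, the muscle cadherin, lay at 0.51 to 0.77 on the GFP-labelled and 0.45 to 0.52 on the Nr4a1-labelled arrays, a difference of -0.17 ± 0.063 that was not called (adjusted p = 0.0706). The epithelial E-cadherin gene Cdh1 and the P-cadherin gene Cdh3 were not well above background in Cy5 on any array. In the reference channel the 2 genes were above background on 6 and 7 of the 8 arrays, so their probes gave signal with the reference RNA.

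Type II classical cadherins held the 3 members that were lower. Of 13 genes, 8 were tested, and 2 were higher, 3 lower and 3 not called, with a median difference of -0.05. Over all features, 12.9% were called higher and 11.5% lower. Cdh8, a type II cadherin of particular cortical and thalamic neurons, gave 1.24, 1.295, 1.21 and 0.99 in GFP-labelled cultures 1 to 4. Their Nr4a1-labelled partners gave 0.89, 0.94, 0.78 and 0.61. The groups did not overlap, and the 4 pair differences lay close together, between -0.43 and -0.35. The difference was -0.38 ± 0.056 (SE, adjusted p = 0.0010, limma), and it stayed past the threshold whichever pair was left out.

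Cdh22, a type II cadherin of brain that is also named PB-cadherin, gave 3.10, 3.08, 3.22 and 3.04 on the GFP-labelled arrays. On the Nr4a1-labelled arrays it gave 2.88, 2.74, 2.70 and 2.77. All Nr4a1-labelled arrays were below all GFP-labelled arrays. The difference was -0.34 ± 0.066 (SE, adjusted p = 0.0050, limma), and it too stayed past the threshold whichever pair was left out. In the reference channel, where every array carries the same RNA, Cdh22 also differed, by -0.19 (adjusted p = 0.0311), and its Cy5 signal by -0.57.

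Cdh10, which is expressed in cortex, hippocampus and other brain regions, gave 3.64, 3.47, 3.75 and 3.56 in GFP-labelled cultures 1 to 4, against 3.56, 3.09, 3.16 and 3.43 in their Nr4a1-labelled partners. The groups overlapped, since Nr4a1-labelled replicate 1 was above GFP-labelled replicates 2 and 4. The difference was -0.30 ± 0.086 (SE, adjusted p = 0.0308, limma). The call was lost without replicate 2 (-0.27, adjusted p = 0.0919) and without replicate 3 (-0.20, adjusted p = 0.107).

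The called type II genes that were higher were Cdh20 and Cdh12. Cdh20 gave 1.91, 2.06, 2.12 and 1.86 with GFP, against 2.29, 2.53, 2.32 and 1.96 with Nr4a1. Nr4a1-labelled replicate 4 lay within the GFP-labelled range, and the other 3 were above it. The difference was 0.28 ± 0.072 (SE, adjusted p = 0.0175, limma), turning to -0.21 with all spots kept for the background correction. The call was lost without replicate 1 (adjusted p = 0.0775) and without replicate 2 (adjusted p = 0.0933). Its Cy3 signal passed background on 0 arrays. Cdh12, a brain cadherin, gave 1.57, 1.55, 1.70 and 1.49 with GFP, against 1.90, 1.69, 1.82 and 1.81 with Nr4a1. Only GFP-labelled replicate 3 reached into the Nr4a1-labelled range. The difference was 0.22 ± 0.064 (SE, adjusted p = 0.0295, limma), turning to -0.04 with all spots and -0.05 with the scanner software's processed signals. The call was lost without replicate 1, 2 or 4 (adjusted p = 0.116, 0.0546 and 0.106).

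Among the other type II genes, Cdh6 was 0.18 ± 0.062 higher and missed the threshold (adjusted p = 0.0565, limma). Cdh9, which takes part in forming mossy fibre synapses on CA3 neurons, had pair differences of -0.11, -0.01, -0.43 and 0.43, and a mean of -0.03 ± 0.11 (adjusted p = 0.872). Cdh11, the OB-cadherin gene, differed by -0.07 ± 0.063 (adjusted p = 0.465). The endothelial VE-cadherin gene Cdh5, Cdh18 and Cdh24 were not above background in Cy5 on any array, and Cdh19 was so on 1 Nr4a1-labelled array. Cdh7 passed background on 3 GFP-labelled arrays and on 0 Nr4a1-labelled arrays, too few to be tested. Its levels there were 0.71, 0.55, 0.57 and 0.53 against 0.53, 0.23, 0.33 and 0.48.

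**Figure D2:**
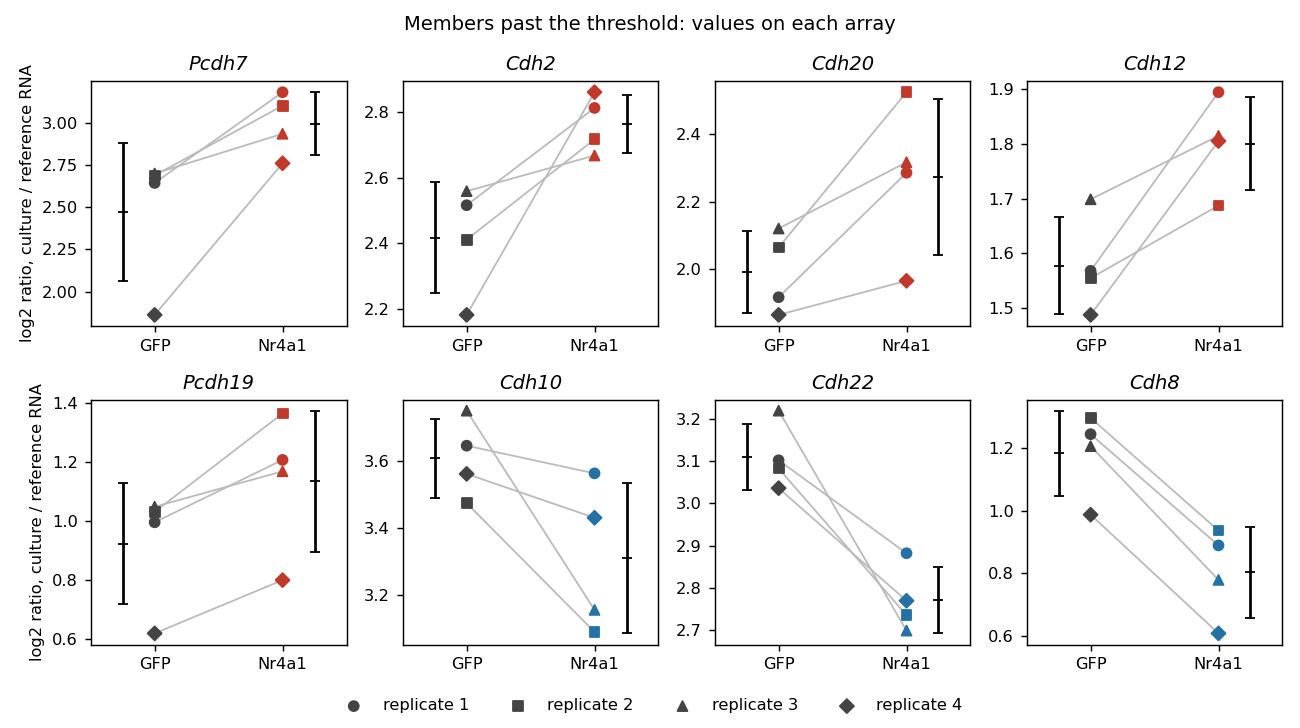
Log2 ratio of culture over reference RNA on each array for the 8 members past the threshold, with lines joining the arrays of a pair and bars giving mean ± SD of each group (n = 4). Pcdh7, Cdh2, Cdh22 and Cdh8 show no overlap between the groups, and the vertical axes differ between panels and do not start at 0.

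The plot of the called members shows the arrays behind each call, with both replicate 4 arrays the lowest of their group at Pcdh7, Pcdh19, Cdh20 and Cdh8. Cadherins outside the classical types were few. Cdh13, the gene of T-cadherin, which is anchored by a lipid and lacks a cytoplasmic tail, differed by -0.17 ± 0.071 (adjusted p = 0.106, limma). It passed the threshold without replicate 4 (-0.24, adjusted p = 0.0493), whose pair went the other way at 0.03. Cdh26 differed by 0.06 ± 0.070 (adjusted p = 0.597). The intestinal cadherin gene Cdh17 and Cdh23, which with Pcdh15 forms the tip links of hair cells, were not above background on any array. The kidney cadherin gene Cdh16 was above it on 1 array of each group and in Cy3 on all 8.

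The delta-1 protocadherins include Pcdh7, which had the largest rise of the members when the brightest probe stood for each gene. With the mean of a gene's probes Cdh2 rose more (0.44 against 0.31). Pcdh7 gave 2.64, 2.69, 2.70 and 1.86 in GFP-labelled cultures 1 to 4, against 3.18, 3.10, 2.94 and 2.76 in their Nr4a1-labelled partners. Every Nr4a1-labelled array was above every GFP-labelled array, and GFP-labelled replicate 4 stood far below the other 3. The difference was 0.52 ± 0.095 (SE, adjusted p = 0.0033, limma), or 1.44-fold, and it ranked 919 of 21116 features by size. Without replicate 4 it was 0.40 (adjusted p = 0.0106). A further Pcdh7 probe, above background on 3 arrays of each group, gave 0.10 ± 0.072 (adjusted p = 0.345), and another was above background on 2 Nr4a1-labelled arrays only and was not tested. The call therefore rests on 1 of 3 probes. By channel, the Pcdh7 Cy5 signal differed by 0.18 (adjusted p = 0.142) and its Cy3 signal, from the common reference, by -0.31 (adjusted p = 0.166).

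Pcdh1 and Pcdh9, the other tested delta-1 genes, were not called, at -0.06 ± 0.059 (adjusted p = 0.541, limma) and 0.10 ± 0.058 (adjusted p = 0.245). Pcdh9 lay between 3.90 and 4.16 on the GFP-labelled arrays and between 4.07 and 4.25 on the Nr4a1-labelled arrays. Its 2 other probes gave 0.13 ± 0.10 (adjusted p = 0.426) and -0.08 ± 0.072 (adjusted p = 0.490).

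Of the 5 delta-2 protocadherins, all tested, Pcdh19 was called. Pcdh19, whose human counterpart is mutated in an epilepsy of females, gave 1.00, 1.03, 1.05 and 0.62 with GFP, against 1.21, 1.36, 1.17 and 0.80 with Nr4a1. Both arrays of the replicate 4 pair were the lowest of their group, so the groups overlapped while every pair differed in 1 direction. The difference was 0.21 ± 0.061 (SE, adjusted p = 0.0303, limma). It was not past the threshold without replicate 1, 2 or 4 (adjusted p = 0.0838, 0.171 and 0.0662), nor without the replicate block (adjusted p = 0.255). By channel, the Pcdh19 Cy5 signal differed by 0.07 (limma adjusted p = 0.517) and its Cy3 signal, from the common reference, by -0.16 (adjusted p = 0.0963).

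Pcdh10, which recruits the WAVE complex and takes part in synapse elimination, gave 3.96, 3.76, 3.79 and 3.42 with GFP, against 4.04, 3.89, 3.81 and 3.95 with Nr4a1. The groups overlapped, and the replicate 4 pair differed by 0.53 while the other pairs differed by 0.02 to 0.12. The difference of 0.19 ± 0.085 was not called (adjusted p = 0.144, limma). Its further probe was called at 0.39 ± 0.096 (adjusted p = 0.0188), with 3 GFP-labelled values of 2.46 to 2.94 and 4 Nr4a1-labelled values of 3.05 to 3.49. For that probe 1 GFP-labelled value was left out as an outlier spot.

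Pcdh8, also named arcadlin, is induced by neuronal activity and promotes the removal of N-cadherin from the synapse. It lay between 6.38 and 6.74 on the GFP-labelled arrays and between 6.52 and 6.95 on the Nr4a1-labelled arrays, and differed by 0.21 ± 0.087 (adjusted p = 0.108, limma). The pairs split, with 0.42 and 0.41 in replicates 1 and 4 and -0.02 and 0.03 in replicates 2 and 3. Pcdh17 and Pcdh18 were not called, at -0.13 ± 0.10 (adjusted p = 0.384) and 0.11 ± 0.068 (adjusted p = 0.276). Outside the delta groups, Pcdh15 differed by -0.03 ± 0.076 (adjusted p = 0.811) and Pcdh20 by -0.02 ± 0.065 (adjusted p = 0.832), and Pcdh12, which endothelial cells express, was not above background on any array.

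**Figure D3:**
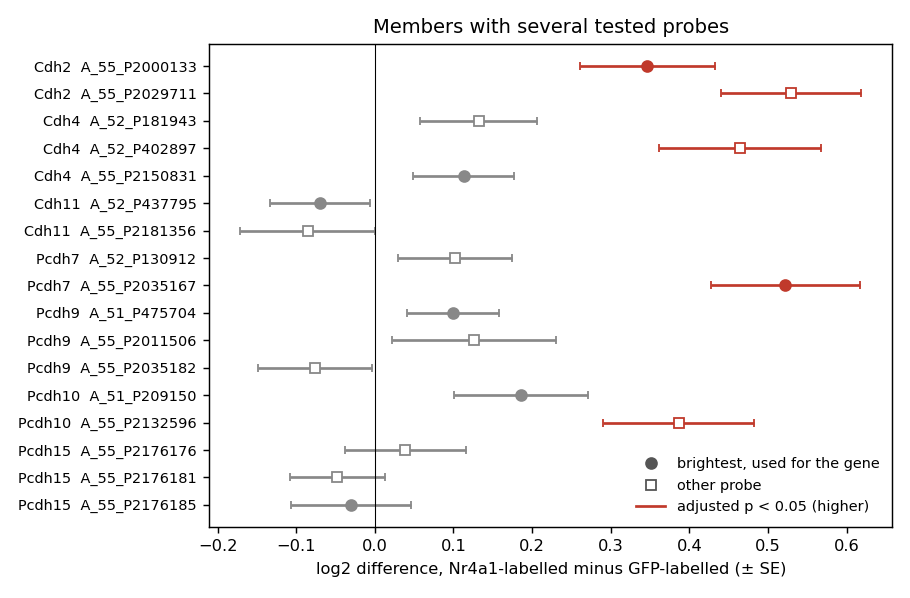
Difference in log2 ratio with its limma standard error for every tested probe of the 7 members with several tested probes. Filled circles mark the brightest probe, used for the gene, and squares the others; Cdh4 and Pcdh10 each have an uncalled brightest probe and another probe past the threshold.

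The plot of the members with several tested probes covers 17 of the 33 member probes that were tested. Among the 10 probes that did not stand for their gene, 3 passed the threshold, all upward, and 2 of these belonged to members that were not called. For Cdh8, whose second probe was not above background on any array, and for the called members Cdh10, Cdh12, Cdh20, Cdh22 and Pcdh19, each with 1 probe, no such comparison could be made.

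The Cy3 channel, which held the same reference RNA on every array, was compared between the groups in the same way. Over all features, 13.2% passed the threshold in Cy3 between the arrays of the 2 groups. Among the members, 5 did (21.7%), with Cdh4, Cdh8, Pcdh1 and Pcdh18 higher and Cdh22 lower. Cdh4 had the largest such difference, at 0.79 (adjusted p = 0.0011, limma), beside 0.97 in Cy5. For Cdh8 the Cy3 difference was 0.19 (adjusted p = 0.0312) and the Cy5 difference -0.22 (adjusted p = 0.0272), of opposite sign. Cy3 was above background on all 8 arrays for the tested members other than Cdh20 (0 arrays), Cdh9 and Pcdh15 (2 arrays each) and Pcdh9 and Pcdh20 (5 arrays each). Read from Cy5 alone, 9 members passed the threshold, beside 29.1% of all features. Of the called members, Cdh8, Cdh12, Cdh20 and Cdh22 did so in the direction of their ratios, and Cdh2, Cdh10, Pcdh7 and Pcdh19 did not. The uncalled members that passed in Cy5 were Cdh4, Pcdh8 at 0.73 (adjusted p = 0.0033), Pcdh18 at 0.29 (adjusted p = 0.0195), Cdh15 at -0.28 (adjusted p = 0.0246) and Pcdh1 at 0.27 (adjusted p = 0.0190), the last with the sign opposite to its ratio. In Cy3, Pcdh8 differed by 0.46 (limma adjusted p = 0.0608), Pcdh18 by 0.17, Cdh15 by -0.06 and Pcdh1 by 0.31.

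**Figure D4:**
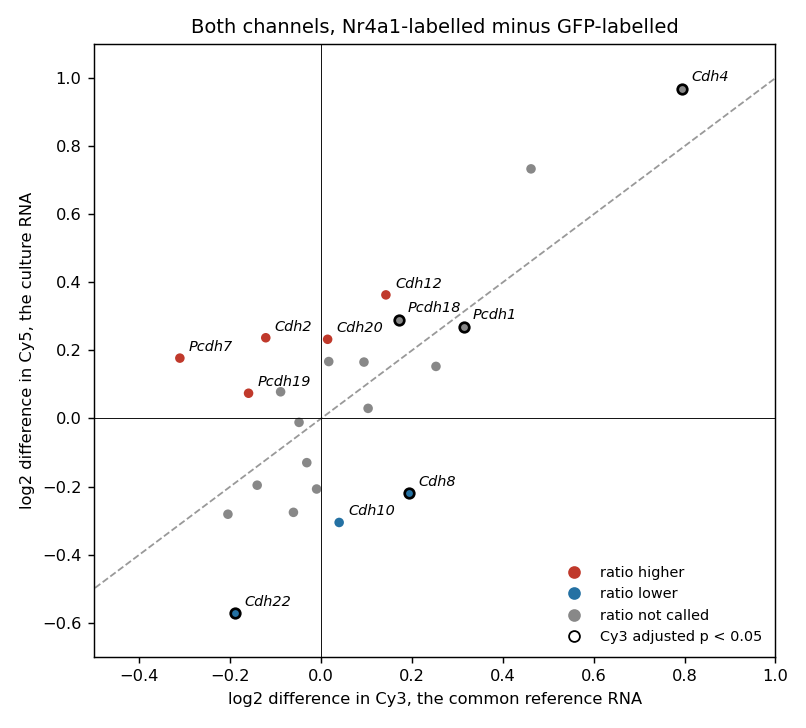
Difference between Nr4a1-labelled and GFP-labelled arrays in the Cy3 channel, which carries the common reference RNA (horizontal, log2), against the Cy5 channel, which carries the culture RNA (vertical, log2), for the 23 tested members, with a dashed line where both are equal. Cdh4 lies at 0.79 and 0.97, near the line, and Pcdh7 at -0.31 and 0.18.

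The plot of both channels puts the 5 higher members above the line of equal change and the 3 lower members below it. The calls were made on the ratio of Cy5 over Cy3, so the side of the line restates them. Cdh4, the member of the largest difference in both channels, lies near the line.

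Partners of cadherins were read from 6 lists with 77 tested genes. Of these, 10 were higher, 9 lower and 58 not called, which is 24.7% called, near the 24.4% of all features. Among 12 tested catenins and catenin-like genes, 2 were higher and 2 lower, with a median difference of -0.01. Beta-catenin, Ctnnb1, gave 0.70, 0.70, 0.61 and 0.56 with GFP, against 0.46, 0.54, 0.52 and 0.34 with Nr4a1. The groups did not overlap, yet the difference of -0.18 ± 0.059 missed the threshold (adjusted p = 0.0538, limma). Ctnnal1, an alpha-catenin-like gene, rose by 0.38 ± 0.068 (adjusted p = 0.0029). The other calls were Ctnnd1, the delta-catenin that holds cadherins at the membrane, at 0.24 (adjusted p = 0.0477), and the plakophilin genes Pkp1 at -0.20 (adjusted p = 0.0388) and Pkp4 at -0.20 (adjusted p = 0.0334). Ctnnd1 lost its call without replicate 1, 2 or 3 (adjusted p = 0.184, 0.0954 and 0.0666), and Pkp1 and Pkp4 lost theirs whichever replicate was left out (adjusted p from 0.0538 to 0.182). With all spots kept for the background correction Pkp1 turned to 0.14.

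Actin linkers and nectins, adhesion proteins that join cadherin junctions, held larger differences, with 3 of 12 tested genes higher and 3 lower. Tjp1, the scaffold ZO-1, gave -0.39, -0.37, -0.34 and -0.64 with GFP, against 0.31, 0.21, 0.03 and 0.08 with Nr4a1. Nectin1 gave 2.84, 2.76, 2.89 and 2.38 with GFP, against 2.22, 2.06, 2.26 and 2.03 with Nr4a1. Neither gene's groups overlapped. Tjp1 rose by 0.59 ± 0.071 (adjusted p = 0.00028, limma) and Nectin1, a partner at the mossy fibre synapse, fell by 0.58 ± 0.070 (adjusted p = 0.00029). Nectin3, which binds it across the junction, fell by 0.42 (adjusted p = 0.00089). Magi1 and Magi2, related scaffolds, were higher and lower in turn.

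Among 14 tested genes of cadherin cleavage and turnover, 1 was higher and 1 lower. Adam10, the protease that sheds the N-cadherin ectodomain, rose by 0.24 ± 0.073 (adjusted p = 0.0390, limma). Without replicate 1, 2 or 4 it was not past the threshold (adjusted p = 0.162, 0.0856 and 0.106). Mmp24, a membrane metalloprotease that also cleaves N-cadherin, fell by 0.46 ± 0.067 (adjusted p = 0.00095). Its levels were 2.39 to 2.72 on the GFP-labelled and 2.05 to 2.16 on the Nr4a1-labelled arrays, with no overlap.

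Effectors of delta-protocadherins gave 1 higher and 2 lower of 15 tested. All 3 are subunits of the WAVE complex. So are Wasf1, Wasf2, Wasf3, Cyfip2, Abi2 and Brk1 of the same list, and none of these was called. Cyfip1 rose by 0.38 ± 0.075 (adjusted p = 0.0052, limma), Abi1 fell by 0.36 ± 0.061 (adjusted p = 0.0022) and Nckap1 fell by 0.23 ± 0.065 (adjusted p = 0.0310). The groups did not overlap for any of the 3, and the call of Nckap1 was lost without replicate 1, 2 or 3 (adjusted p = 0.0528, 0.166 and 0.0891).

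Of 16 tested genes elsewhere in the cadherin superfamily, 2 were higher and 1 lower. Ret, a receptor kinase with cadherin-like repeats, had a larger difference than any member. It gave 1.99, 2.08, 2.23 and 1.75 with GFP, against 3.07, 3.13, 2.77 and 2.76 with Nr4a1, a rise of 0.92 ± 0.089 (adjusted p = 7.6e-05, limma). Dchs1, a large cadherin that pairs with Fat4, was 0.22 higher (adjusted p = 0.0282; -0.20 with all spots kept for the background correction) and lost the call without replicate 1, 2 or 4 (adjusted p = 0.0572, 0.146 and 0.0951). Clstn1, a calsyntenin of the postsynaptic membrane, fell by 0.24 (adjusted p = 0.0126) and missed the threshold without replicate 2 (adjusted p = 0.0528). Of 8 tested regulators of transcription known to repress cadherin genes, Zeb1 was called, at 0.35 ± 0.062 higher (adjusted p = 0.0032).

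In bulk cultures, fewer cells of a type and less RNA per cell cannot be told apart, so marker genes of the cells the cultures could hold were read beside the members. All 12 pan-neuronal markers were above background, and their mean level was 4.32 to 4.45 on the GFP-labelled and 4.23 to 4.45 on the Nr4a1-labelled arrays, with 2 higher and 2 lower. Oligodendrocyte lineage markers were higher for 6 of 11 and lower for 2, with mean levels of 0.84 to 1.00 against 1.197 to 1.24. Markers of dividing cells were higher for 6 of 8 tested, at -4.25 to -4.00 against -3.68 to -3.57. Gpr17 of the oligodendrocyte list and Bub1 of the dividing-cell list were above background on 1 GFP-labelled and 4 Nr4a1-labelled arrays. Both genes thus met the filter only through the group where they were higher. Of all features, 12.9% were called higher and 11.5% lower. Dentate granule and CA3 markers were higher for 1 and lower for 4 of 8, at 1.99 to 2.13 against 1.82 to 1.95. The part of these shifts in the differences of the members was not tested.

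For the other cell types the shifts were smaller or mixed. Of 11 astrocyte markers 3 were higher, with mean levels of 3.48 to 3.61 against 3.60 to 3.74. For microglia 1 of 6 tested was lower, at -1.35 to -1.31 against -1.56 to -1.44. Cx3cr1, P2ry12 and C1qa of that list did not pass the filter. The tested Aif1, Csf1r, Tmem119, C1qb, Tyrobp and Itgam were above background on all arrays of both groups. Endothelial and pericyte markers were split, 1 higher and 1 lower of 7 tested, at -1.01 to -0.92 against -1.01 to -0.93. Fibroblast markers gave 1 higher and 2 lower of 10, at -4.06 to -3.90 against -4.05 to -4.00. The higher gene, Pdgfra, is also in the oligodendrocyte lineage list and is counted as higher there too. Glutamatergic markers gave 1 higher and 1 lower of 8, and interneuron markers 2 and 2 of 12, with overlapping mean levels in both lists.

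**Figure D5:**
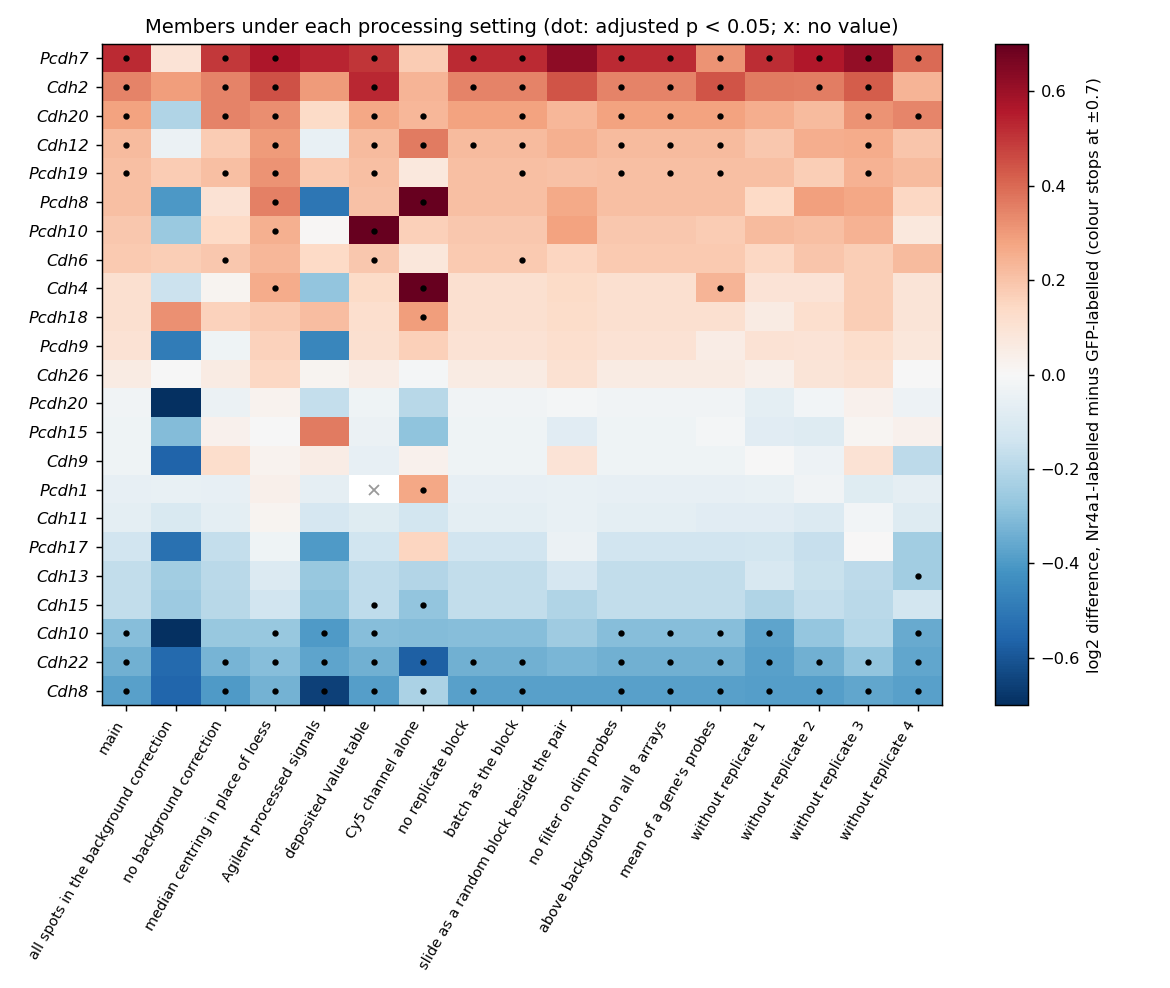
Difference of each tested member (vertical) under each processing setting (horizontal), as colour from -0.7 (blue) to 0.7 (red) on the log2 scale, with a dot where the adjusted p was under 0.05 and a cross where there was no value. Cdh8 and Cdh22 keep their call in 14 of the 16 settings other than the first column, and no member has a dot with all spots kept or with slide as a random block.

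The plot of settings shows which calls depend on the processing. When no spot was left out before background correction, 225 features (1.07%) and 0 members passed the limma test. At an unadjusted p under 0.05 stood 4 members, beside 3962 of all 21116 features. With the scanner software's own processed signals, 0 members were higher and 3, Cdh8, Cdh10 and Cdh22, were lower.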

How the data were processed

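RNA of 8 cultures was measured on 2-colour Agilent arrays, 4 labelled Nr4a1 and 4 labelled GFP, paired by a tag in the labels. Per the file headers, Agilent Feature Extraction 11.0.1.1 made the files the authors deposited, which give each spot's median and background intensity on a linear scale, its processed signal and a log10 ratio. Their value table, also deposited, was read as log2 of culture over reference, since its columns correlated at 0.998 to 1.00 with the log2 ratios computed here, with slopes of 0.992 to 1.01 and medians of 0.0240 to 0.0312. The submitters' processing notes name limma without a version, and the sources used here do not say how its 24275 probes were chosen.

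Spots with a non-uniform local background (37 on Nr4a1-labelled replicate 2, 0 to 9 elsewhere) were left out, median signals were corrected by normexp (offset 50) and normalised by loess within arrays, outlier spots were dropped and spots averaged per probe. That omission followed an earlier analysis of these data. Testing needed a Cy5 signal well above background on 4 or more of 8 arrays and 3 values per group, and the brightest probe stood for a gene, leaving 21116 features. Groups were compared by limma 3.58.1 (R 4.3.3), the pair entering as a block, with p-values adjusted by Benjamini-Hochberg and a threshold of 0.05. Deviations from the group means correlated within pairs at -0.10, 0.28, -0.02 and 0.42. On simulated data of 21116 features, 76% of changes of 0.5 and 98% of changes of 1 on the log2 scale were recovered, with 10 false calls. Smaller changes were not simulated, and of the tested members only Pcdh7 differed by 0.5 or more. The number of arrays limits the precision.

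The members, lists and alternatives were chosen with earlier results of these data known. Every member is named, values on all arrays are given for the called members, Cdh2 and Pcdh10, and up to 4 called genes of each partner list are named by smallest p. Values of other genes were chosen after they were seen. Values of 1 partner gene are not reported here. Protein sequences were not used here.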

Additional observations from a re-analysis of the deposited data

Results flagged for a closer look

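Values that stood apart from the other arrays of their group by Dixon's test were found in 3 of the 48 groups of 4 arrays (23 members and Nr4a1, 2 groups each), and chance alone gives about 1 in 20. Pcdh7 was at 1.86 on GFP-labelled replicate 4, below the other 3 GFP-labelled arrays at 2.64 to 2.70. Pcdh19 was at 0.62 on the same array, below 1.00 to 1.05 on the others. Cdh6 was at -0.28 on Nr4a1-labelled replicate 4, below 0.0029 to 0.045 on the others. All 3 values came from the replicate 4 pair, which is the whole of batch 2. With batch as the block in place of the pair, Cdh6 passed the threshold (limma adjusted p = 0.0264) and Cdh10 lost its call (adjusted p = 0.0593), and without replicate 4 Pcdh7 stayed past it (0.40, adjusted p = 0.0106) and Pcdh19 did not (0.22, adjusted p = 0.0662).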

How the results depend on the processing

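Over 16 alternatives, the 8 called members kept direction and call in 85 of 128 values, lost the call in 40 and turned sign in 3, and the 15 uncalled members kept both in 197 of 239, turned sign in 28 and passed the threshold in 15, 1 of them (Pcdh1 in Cy5 alone) with the sign turned. The causes were not tested. Members higher, 5 as reported, numbered 8 with median centring in place of loess and 7 with the deposited value table. The count was 6 with Cy5 alone, with the mean of a gene's probes and with batch as the block. It was 3 without the replicate block, 0 with the scanner software's processed signals and 1 to 5 when 1 replicate was left out. Members lower, 3 as reported, numbered 2 to 4 when 1 replicate was left out. When no spot was left out before background correction, and again when slide entered as a random block (correlation 0.863), limma called 0 members in either direction and 0 partner genes in either direction. At an unadjusted p under 0.05 stood 4 members and 16 partner genes in the first and 0 members and 3 partner genes in the second. Of all 21116 features, 3962 did so in the first and 722 in the second. Partner genes higher, 10 as reported, numbered 3 with the processed signals, 16 with the deposited value table and 7 to 11 with 1 replicate left out. Partner genes lower, 9 as reported, numbered 5 with median centring, 16 with the value table, which can hold another probe of a gene, and 5 to 7 with 1 replicate left out. Of all calls, 52.7% were higher as reported, 73.3% with median centring and 36.1% with the processed signals. Calls over all features fell to 225 with all spots, 2583 with the processed signals and 12 with slide as a block. Without the replicate block, Cdh10 (adjusted p = 0.0602), Cdh20 (0.0788) and Pcdh19 (0.255) lost their calls and no member gained one. With batch as the block, Cdh10 lost its call (adjusted p = 0.0593) and Cdh6 gained one (adjusted p = 0.0264). Nr4a1 passed the threshold with median centring (0.40, adjusted p = 0.0167).

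With all spots, values of the other sign were -0.152 for Cdh4, -0.0436 for Cdh12, -0.213 for Cdh20, -0.00266 for Cdh26, -0.403 for Pcdh8, -0.487 for Pcdh9, -0.257 for Pcdh10, 0.137 for Pkp1 and -0.196 for Dchs1. With the processed signals they were -0.275 for Cdh4, 0.0519 for Cdh9, -0.0511 for Cdh12, -0.506 for Pcdh8, -0.457 for Pcdh9 and 0.361 for Pcdh15. Without background correction they were 0.123 for Cdh9, -0.0309 for Pcdh9 and 0.0276 for Pcdh15. With median centring they were 0.0229 for Cdh9, 0.0186 for Cdh11, 0.0383 for Pcdh1 and 0.0261 for Pcdh20. Cy5 alone gave 0.0297 for Cdh9, -0.0114 for Cdh26, 0.270 for Pcdh1 and 0.153 for Pcdh17, and slide as a block gave 0.0949 for Cdh9. With 1 replicate left out, Cdh9 ran from -0.183 to 0.102, Cdh26 from -0.00292 to 0.109, Pcdh15 from -0.0883 to 0.0323, Pcdh17 from -0.246 to 0.00462 and Pcdh20 from -0.0664 to 0.0316. Without the filter on dim probes, all 34 members with a probe were compared and the same 8 were called, beside 14.4% of all features. An unadjusted p under 0.05 (limma) was found for 15 members, beside 8676 of 32584 features. The 11 added members have signals near background.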
